A study of Mus musculus with 15 samples.

Results

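The 10 genes described here mark microglia and other macrophages: Cx3cr1, P2ry12, Csf1r, Tyrobp, C1qa, C1qb, Cd68, Mrc1, Cd163 and Lyz2. They were taken by symbol, and every probe set annotated to a symbol was kept, which gave 15 probe sets of the 45037 on the array that are not controls, and 10 of the 18193 genes that these name singly. Csf1r and C1qb had 3 probe sets each, Cx3cr1 had 2, and the other 7 genes had 1. Where a gene had several, the brightest over all arrays is given first and the others beside it. Intensities of different probe sets are not set against each other, since each binds its target with its own strength.

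The 15 arrays came from male C57BL6J mice of 10 to 12 weeks and fell into 4 groups. Brain cells that had been sorted by flow cytometry as smooth muscle cells or pericytes, which together are called mural cells, came from 4 Notch3 +/- mice and 5 Notch3 -/- mice. Aorta explants gave 3 Notch3 +/- and 3 Notch3 -/- arrays. Notch3 is a receptor of vascular smooth muscle, and the comparison was between mice with 1 working copy and mice with none, with no wild-type group among the arrays used here. The labels and design text used here name no marker for the sort, and the labels do not say whether each aorta array is a separate mouse, so p-values for aorta measure the spread between arrays. Brain RNA was extracted on columns from lysed sorted cells and aorta RNA with Trizol followed by columns, so tissue, sorting and extraction cannot be told apart. The values are hybridisation intensities that the authors scaled to a target of 150 on every array.

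Microglia are the resident macrophages of the brain tissue, while perivascular and meningeal macrophages lie along its vessels and borders, beside the mural cells. Arteries such as the aorta hold macrophages in the adventitia. Most depend for survival on Csf1r, the receptor of the growth factors CSF1 and interleukin 34. Microglia in healthy brain are known for high Cx3cr1, the receptor of fractalkine, and P2ry12, a receptor of ADP, whereas Mrc1, the mannose receptor, and Cd163, the scavenger receptor of haemoglobin bound to haptoglobin, are known for border and tissue macrophages. Tyrobp is the signalling adaptor of receptors such as Trem2, C1qa and C1qb encode chains of complement C1q, Cd68 is a glycoprotein of the lysosome, and Lyz2 encodes lysozyme.

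The labels held for the targeted gene. The brighter Notch3 probe set read 2326 to 2805 in brain +/- and 150 to 249 in brain -/- arrays, and 362 to 453 in aorta +/- and 80.1 to 146 in aorta -/- arrays. Arrays of 1 group correlated at r = 0.93 to 0.98 across probe sets on the log2 scale. The brain sort held markers of several cell types besides the macrophage genes: all 11 mural genes on a list of markers lay above the 95th percentile of genes of other organs in both brain groups, as did all 10 endothelial genes. The summed intensity of 8 oligodendrocyte genes was 27643 to 44946 on brain and 352 to 801 on aorta arrays, and that of 9 fibroblast genes was 6151 to 14698 on brain and 46023 to 49184 on aorta arrays. These sums moved with tissue, as several macrophage genes did, and their part in the results below was not tested.

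The first question was whether these genes could be read above the level of genes that neither tissue should express. For this, 27 genes of other organs (42 probe sets) served as a reference. Their 95th percentile was 57.2 in brain and 42.6 in aorta. Csf1r, Tyrobp, C1qa, C1qb, Cd68, Mrc1 and Lyz2 exceeded it on 9 of 9 brain and 6 of 6 aorta arrays, by every probe set. Cd163 exceeded it on 6 of 6 aorta arrays and on 5 of 9 brain arrays. Cx3cr1 and P2ry12, the genes most closely tied to microglia, lay near it: Cx3cr1 exceeded it on 5 of 9 brain and 0 of 6 aorta arrays, and P2ry12 on 3 of 9 brain and 2 of 6 aorta arrays. The weaker Cx3cr1 probe set (1450019_at) read 0.847 to 7.55 over all arrays and is not used further. In the brain preparation 7 of the 10 genes were thus above the reference on every array, while 4 of 9 arrays were at or below it for Cx3cr1 and Cd163 and 6 of 9 for P2ry12.

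The promoters of 7 of the 10 genes were read from the RefSeq promoter table (build GRCm38.p6). C1qa and Tyrobp had none in it, and that of Csf1r is not reported here and is not among the 7. PU.1 is the transcription factor that drives macrophage genes, and GAGGAA, read on both strands (TTCCTC on the other), is the core of its site. In the 250 bases before the start, 3 of the 7 promoters (42.9%) held it, against 7639 of 32851 promoters in the table (23.3%). Below are those 3, with the motif in capitals, followed by Cx3cr1 and Lyz2, which differed in opposite directions between the tissues and held no match. A match describes the letters only, and no match says nothing about the factor. The windows, each printed along its gene's strand, are chr4:136886201-136886450 (minus strand), chr11:69666171-69666420 (minus), chr2:14229164-14229413 (plus), chr9:120068297-120068546 (minus) and chr10:117282273-117282522 (minus).
C1qb: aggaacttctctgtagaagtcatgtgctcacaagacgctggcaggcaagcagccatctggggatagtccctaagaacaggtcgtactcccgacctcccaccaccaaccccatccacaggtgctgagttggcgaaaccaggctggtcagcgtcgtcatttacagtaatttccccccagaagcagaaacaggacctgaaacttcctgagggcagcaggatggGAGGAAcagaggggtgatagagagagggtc
Cd68: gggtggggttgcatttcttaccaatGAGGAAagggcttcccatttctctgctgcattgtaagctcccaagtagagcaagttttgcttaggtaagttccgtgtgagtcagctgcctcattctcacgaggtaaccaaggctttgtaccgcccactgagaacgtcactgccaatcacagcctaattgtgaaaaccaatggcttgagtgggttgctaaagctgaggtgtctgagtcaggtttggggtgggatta
Mrc1: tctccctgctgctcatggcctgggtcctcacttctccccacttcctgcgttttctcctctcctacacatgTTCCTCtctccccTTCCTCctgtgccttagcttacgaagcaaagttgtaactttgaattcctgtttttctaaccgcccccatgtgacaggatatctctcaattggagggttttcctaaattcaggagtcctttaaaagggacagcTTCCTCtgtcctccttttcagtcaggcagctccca
Cx3cr1: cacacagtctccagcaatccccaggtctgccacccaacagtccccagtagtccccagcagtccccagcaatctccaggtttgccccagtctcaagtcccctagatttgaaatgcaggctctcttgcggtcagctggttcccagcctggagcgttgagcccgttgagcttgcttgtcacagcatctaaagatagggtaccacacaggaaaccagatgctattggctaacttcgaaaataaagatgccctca
Lyz2: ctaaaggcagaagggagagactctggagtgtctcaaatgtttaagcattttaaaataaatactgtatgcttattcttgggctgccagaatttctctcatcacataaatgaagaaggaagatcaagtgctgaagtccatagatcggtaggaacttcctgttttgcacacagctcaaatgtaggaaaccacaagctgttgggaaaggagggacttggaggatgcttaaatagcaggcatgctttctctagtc
The C1qb match lay from -30 to -25 before the start, the Cd68 match from -225 to -220, and Mrc1 held 3 matches, all on the other strand, the first from -180 to -175.

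The comparison of sorted brain cells with aorta explants asked how the macrophage genes were distributed between the 2 preparations, separately in +/- and -/- mice. The receptors Csf1r and Cx3cr1 were higher in brain, and the scavenger receptors Cd163 and Mrc1, lysozyme and the complement chain C1qa were higher in aorta. In Notch3 +/- arrays Csf1r was 4.14-fold higher in brain, while Lyz2 was 4.03-fold, Mrc1 2.63-fold and C1qa 1.56-fold lower. For Cx3cr1 in aorta and Cd163 in brain the +/- mean was at or below the level of genes of other organs, so only a bound is given: Cx3cr1 was at least 1.39-fold higher and Cd163 at least 3.68-fold lower in brain. In such bounds each array of the dimmer group was taken at the higher of its own value and that level. The brighter group was taken as read, although that level was itself higher in brain, at 57.2 against 42.6 in aorta. All 4 genes of other organs tested were higher in brain, with median differences of 0.36 in +/- and 0.49 in -/- mice. Of these, 1 was called, in -/- mice. Where brain was the higher tissue, such a fold is therefore a bound on signal and not on expression. The same 6 genes passed in the same directions in Notch3 -/- arrays. P2ry12, Tyrobp, Cd68 and the brightest C1qb probe set did not pass in either genotype. All differences are on the log2(value + 16) scale, which understates the change of dim genes, and in these bulk samples fewer cells of a type and less RNA per cell cannot be told apart.

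Such differences were common on the array. In +/- mice 26.5% of all probe sets tested were called higher and 25.2% lower in brain, and in -/- mice 33.6% and 28.9%, at an adjusted p under 5% (limma with Benjamini-Hochberg adjustment). The members' counts, 2 of 10 higher and 4 of 10 lower in each genotype, are to be read against those shares. No share of all probe sets is given for arrays that did not overlap between tissues. Where a member's tissues did not overlap, that is therefore only a description. One of the 2, Cx3cr1, reached the brightness filter through its brain group alone, so its call carries no separate weight. The median difference of the 10 genes was 0.03 in +/- and 0.16 in -/- mice, against 0.07 and 0.11 over all probe sets tested. Centring each array on its median shifted the median of all probe sets to -0.10 and -0.08, and the higher share of all calls from 51.2% to 40.1% in +/- mice and from 53.7% to 43.2% in -/- mice. The 6 calls kept their directions under it.

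**Figure D1:**
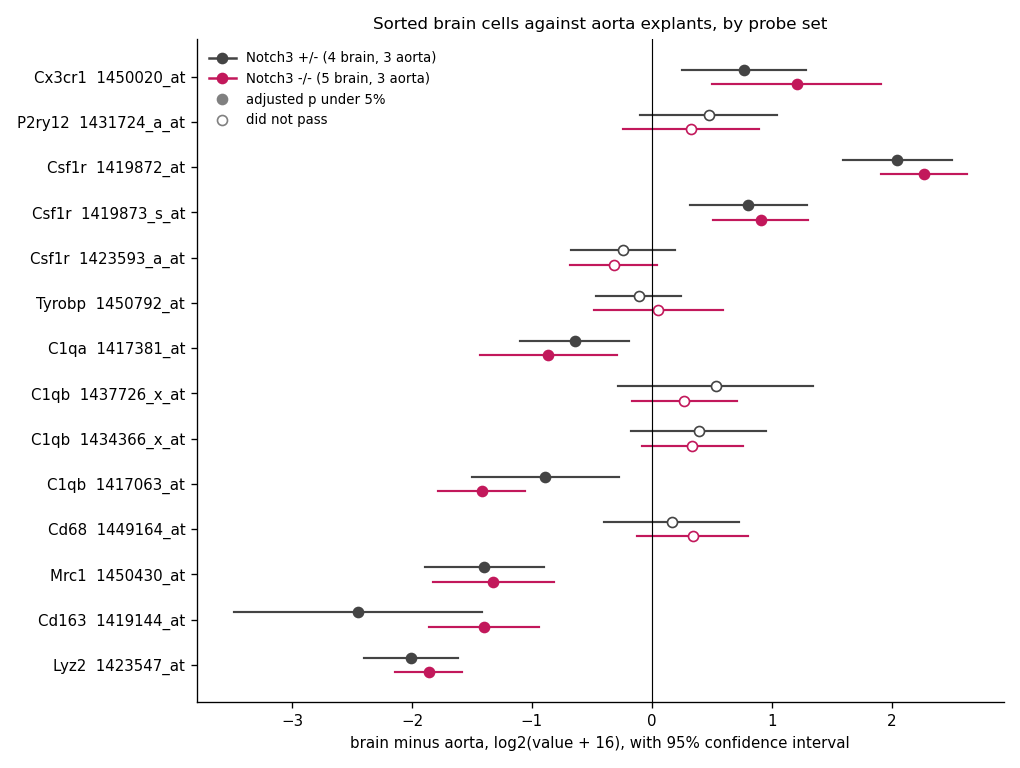
Difference between sorted brain cells and aorta explants in log2(value + 16) for the 14 probe sets that passed the brightness filter, with 95% confidence intervals, in Notch3 +/- (4 brain, 3 aorta arrays) and Notch3 -/- mice (5 brain, 3 aorta arrays). Filled points passed an adjusted p of 5%; Csf1r 1419872_at lies farthest right, at 2.05 and 2.27, and Cd163 (+/-) and Lyz2 (-/-) farthest left, at -2.45 and -1.86; Cx3cr1 in both genotypes and Cd163 in +/- mice are drawn at their fitted values, although 1 group's mean lay at or below the level of genes of other organs.

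Csf1r, the receptor tyrosine kinase on which macrophage survival depends, differed most among the genes higher in brain. Its brightest probe set (1419872_at) read 8869, 7636, 9457 and 12824 on the 4 brain +/- arrays (E, G, I and H) and 14481, 7943, 9145, 11230 and 10728 on the 5 brain -/- arrays (A, B, C, D and F). On aorta arrays it read 2008, 2798 and 2136 in +/- (5556, 5561 and 6166) and 2247, 2084 and 2149 in -/- (5558, 5559 and 6167). Every brain array was above every aorta array. The group means were 9697 ± 2218 (SD, n = 4), 10705 ± 2480 (SD, n = 5), 2314 ± 424 (SD, n = 3) and 2160 ± 82.1 (SD, n = 3), so the order of tissues was clear and that of genotypes was within the spread. The difference was 2.05 ± 0.21 (SE, adjusted p = 1.36e-05) in +/- and 2.27 ± 0.17 (adjusted p = 6.64e-08) in -/- mice.

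The 3 Csf1r probe sets did not give 1 answer. The second, 1419873_s_at, whose suffix marks probes that can match more than 1 transcript, was higher in brain by 0.80 ± 0.22 (adjusted p = 0.0105) and 0.91 ± 0.18 (adjusted p = 0.000727). It ranged from 981 to 1894 in brain and from 608 to 887 in aorta, with no overlap. Without aorta +/- array 6166 its +/- adjusted p was 0.0572. The third, 1423593_a_at, lay at 125 to 260 in brain and 199 to 253 in aorta, overlapping. Its differences pointed the other way, at -0.24 ± 0.20 (adjusted p = 0.333) and -0.32 ± 0.17 (adjusted p = 0.113), and did not pass. The rise of Csf1r in brain was therefore seen by 2 of its 3 probe sets. The gene beside Csf1r on its chromosome is Pdgfrb, a receptor of mural cells that read 5321 to 17637 in brain and 3263 to 5561 in aorta. Over the 9 brain arrays the brightest Csf1r probe set correlated with Pdgfrb at r = 0.27 (Spearman's rho -0.15), and with the leukocyte genes Laptm5, Selplg and Ctss at r = 0.94, 0.90 and 0.75 (rho 0.88, 0.87 and 0.83). For 1419873_s_at and 1423593_a_at the brain r with Pdgfrb was 0.37 and 0.51 (rho -0.12 and 0.18), and with Laptm5 0.97 and 0.90. The 6 aorta arrays gave another order. There 1419873_s_at correlated with Pdgfrb at r = 0.85 (rho 0.89), against 0.51, 0.39 and 0.30 with Laptm5, Ctss and Selplg. In aorta the brightest probe set gave 0.64 with Pdgfrb, 0.83 with Laptm5, 0.78 with Ctss and 0.42 with Selplg, and 1423593_a_at gave 0.66, 0.49, 0.38 and 0.66. Each r and rho here was computed on the scale of the fits, after the mean of each genotype was subtracted from its arrays. The values therefore describe deviations within genotypes, not the intensities listed, and leave out any difference between genotypes. These are descriptions over arrays of both genotypes that share scaling and preparation.

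Cx3cr1 was the other gene called higher in brain. It read 65.2, 44.7, 80.5 and 76.5 in brain +/-, 132, 47.5, 45.7, 54.2 and 112 in brain -/-, 27.4, 33.9 and 34.7 in aorta +/- and 29.2, 31.1 and 9.68 in aorta -/- arrays. Brain and aorta did not overlap, although the lowest brain arrays were close to the highest aorta arrays. The -/- brain arrays spread the most, with A and F well above B, C and D. With aorta at or below the reference in both genotypes, the Cx3cr1 signal was at least 1.39-fold higher in brain in +/- and at least 1.49-fold in -/- mice. On 4 of 9 brain arrays it lay at or below the higher brain reference of 57.2. The fitted differences, which rest on those dim aorta values, were 0.77 ± 0.23 (adjusted p = 0.0179) and 1.21 ± 0.33 (adjusted p = 0.00558), and 0.0453 and 0.0159 were the adjusted p-values when no probe set was filtered out. Without aorta +/- array 5556 the +/- adjusted p was 0.0705, and without brain -/- array A the probe set fell under the filter.

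P2ry12 did not follow Cx3cr1 to significance. Its values were 49.0, 41.7, 94.9 and 56.3 in brain +/-, 91.8, 39.7, 55.5, 36.2 and 81.6 in brain -/-, 34.7, 37.2 and 40.3 in aorta +/- and 32.3, 46.9 and 51.4 in aorta -/- arrays. In +/- mice the lowest brain array was just above the highest aorta array, whereas in -/- mice the tissues overlapped. The difference was 0.47 with a 95% interval of -0.09 to 1.04 (adjusted p = 0.146) in +/- and 0.32 with an interval of -0.24 to 0.89 (adjusted p = 0.299) in -/- mice, so a rise of the size fitted for Cx3cr1 in +/- mice lies inside both intervals. Its aorta +/- mean lay at or below the reference.

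Lyz2, the lysozyme of macrophages and granulocytes, had the clearest excess in aorta. It read 583, 485, 393 and 492 in brain +/- and 513, 471, 636, 612 and 582 in brain -/- arrays. The aorta arrays read 1831, 2370 and 1837 in +/- and 2134, 1996 and 2096 in -/-. The highest brain array was far below the lowest aorta array. Group means were 488 ± 77.8 (SD, n = 4), 563 ± 69.2 (SD, n = 5), 2013 ± 310 (SD, n = 3) and 2076 ± 71.3 (SD, n = 3). The difference was -2.01 ± 0.18 (adjusted p = 5.46e-06) in +/- and -1.86 ± 0.13 (adjusted p = 4.16e-08) in -/- mice. The neighbouring gene Lyz1 is a near-identical copy, and its brightest probe set, of the kind whose probes can match other transcripts, differed by -0.89 and -0.37 (adjusted p = 0.0134 and 0.022), so the share of each copy in these signals is uncertain. Of 13 genes of monocytes and neutrophils, 9 had a probe set, and 4 of these were tested in +/- mice, with 0 called, and 3 in -/- mice, with 1 called higher in brain. The means of S100a8, S100a9, Elane, Mpo and Chil3 lay at or below the reference in all 4 groups. The neutrophil granule gene Ngp lay above it in all 4, with means of 71.3 and 103 in brain +/- and -/- and 50.3 and 50.7 in aorta +/- and -/-, and was the gene called (0.79, adjusted p = 0.00836). Csf3r, a receptor of granulocytes, lay above it in both brain groups (66.1 and 74.9) and in aorta -/- (44.0), and Plac8 lay above it in all 4.

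Cd163 and Mrc1, the scavenger receptors of border and tissue macrophages, were also lower in brain. Cd163 read 141, 45.4, 12.4 and 29.7 in brain +/-, 106, 49.2, 78.6, 104 and 64.3 in brain -/-, 215, 357 and 385 in aorta +/- and 212, 217 and 270 in aorta -/- arrays. No brain array reached the lowest aorta array, and the brain +/- arrays spread over a range of 11.3-fold, the widest of the brightest probe sets, from I to E. In +/- mice, where the brain mean lay at the reference, Cd163 was at least 3.68-fold lower in brain (fitted difference -2.45 ± 0.47, adjusted p = 0.00127). In -/- mice the difference was -1.40 ± 0.21 (adjusted p = 6.77e-05). Mrc1 read 311, 200, 165 and 167 in brain +/-, 248, 129, 351, 272 and 269 in brain -/-, 492, 653 and 554 in aorta +/- and 655, 584 and 653 in aorta -/- arrays. Again the tissues did not overlap, and the difference was -1.40 ± 0.22 (adjusted p = 0.000387) in +/- and -1.32 ± 0.23 (adjusted p = 0.000242) in -/- mice.

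The complement chains differed by gene and by probe set. C1qa read 334, 243, 322 and 296 in brain +/-, 311, 123, 277, 314 and 349 in brain -/-, 341, 552 and 557 in aorta +/- and 500, 577 and 400 in aorta -/- arrays. Array 5556, the lowest in aorta, came close to the brain +/- arrays and lay within the range of the brain arrays as a whole. The difference was -0.64 ± 0.21 (adjusted p = 0.0221) in +/- and -0.87 ± 0.27 (adjusted p = 0.0116) in -/- mice. It was the least stable of the 6 calls: the adjusted p was 0.0587, 0.104 and 0.107 in +/- mice without brain array G, aorta array 5561 and aorta array 6166, and 0.0567 in -/- mice without aorta array 5559.

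C1qb gave opposite signs by probe set. Its brightest, 1437726_x_at, read 987, 889, 1426 and 3214 in brain +/-, 1870, 828, 1073, 1155 and 1067 in brain -/-, 805, 1110 and 1035 in aorta +/- and 904, 974 and 984 in aorta -/- arrays. The tissues overlapped, and array H stood well above the other 3 brain +/- arrays. The difference was 0.53 ± 0.37 (adjusted p = 0.247) in +/- and 0.27 ± 0.20 (adjusted p = 0.255) in -/- mice. The similar probe set 1434366_x_at gave 0.39 ± 0.25 (adjusted p = 0.222) and 0.34 ± 0.20 (adjusted p = 0.147). The third, 1417063_at, which has no suffix for shared probes, ranged from 62.5 to 213 in brain and from 232 to 294 in aorta, with no overlap. It was lower in brain, at -0.89 ± 0.28 (adjusted p = 0.02) and -1.42 ± 0.17 (adjusted p = 7.2e-06), and without aorta +/- array 5561 the +/- adjusted p was 0.0752. The direction of C1qb between tissues thus depends on the probe set. C1qc, the third chain and the neighbour of both genes on chromosome 4, differed by -0.52 (adjusted p = 0.0641) in +/- and fell in brain by 0.88 (adjusted p = 0.00395) in -/- mice.

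Tyrobp and Cd68, which macrophages of every tissue are known to express, overlapped between the preparations. Tyrobp read 374, 315, 355 and 397 in brain +/-, 499, 212, 373, 498 and 558 in brain -/-, 383, 444 and 344 in aorta +/- and 407, 347 and 421 in aorta -/- arrays. The aorta arrays lay within the range of the brain arrays. The difference was -0.11 with a 95% interval of -0.47 to 0.25 (adjusted p = 0.595) in +/- and 0.06 with an interval of -0.48 to 0.59 (adjusted p = 0.86) in -/- mice. Cd68 read 127, 92.5, 59.7 and 90.3 in brain +/-, 134, 64.9, 81.6, 123 and 91.1 in brain -/-, 61.6, 109 and 70.8 in aorta +/- and 83.9, 73.3 and 60.9 in aorta -/- arrays. Here too the groups overlapped, with differences of 0.16 (interval -0.40 to 0.73, adjusted p = 0.614) and 0.34 (interval -0.12 to 0.81, adjusted p = 0.18). Centring arrays on their medians turned the sign of Cd68 in +/- mice to -0.0074 and of Tyrobp in -/- mice to -0.13, neither past the threshold.

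**Figure D2:**
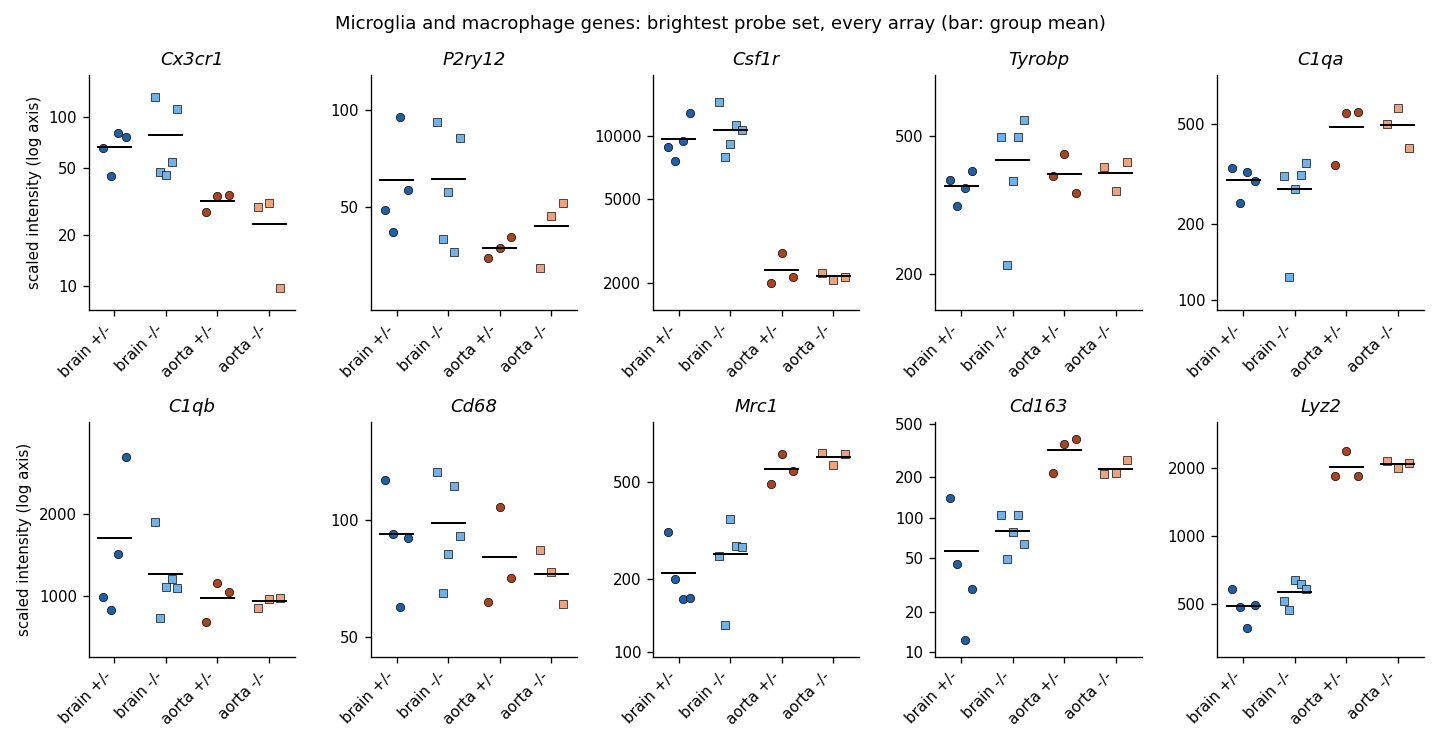
Scaled intensity on every array (log axis, its own range in each panel) for the brightest probe set of each gene, by tissue and Notch3 genotype, with a bar at the group mean (4 brain +/-, 5 brain -/-, 3 aorta +/- and 3 aorta -/- arrays). Csf1r and Cx3cr1 separate with brain above aorta, Mrc1, Cd163 and Lyz2 with aorta above brain, and Tyrobp, Cd68 and C1qb overlap. The share of all probe sets that separate between the tissues is not given.

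Lists of related genes were read in the same way, each gene by its brightest probe set. Counts cover genes that reached the filter, which some did through 1 tissue alone, and should be read against the shares of all probe sets given above. Of 14 genes of resident microglia, 12 had a probe set. In +/- mice 8 were tested, of which 4 rose and 2 fell in brain, and in -/- mice 7 were tested, of which again 4 rose and 2 fell. Selplg, the ligand of P-selectin (1.70 and 1.72, adjusted p = 0.00201 and 0.000266), P2ry13, which neighbours P2ry12 (0.95 and 0.81, adjusted p = 0.0024 and 0.00203), and Siglech rose in both, while Tmem119 (-1.53 and -1.34, adjusted p = 0.000771 and 9e-05) and Olfml3 (-1.26 and -1.28, adjusted p = 0.000414 and 1.48e-05) fell in both. Siglech lay at or below the reference in aorta and was at least 1.62-fold and 1.71-fold higher in brain. Adgrg1 was called in +/- mice (adjusted p = 3.05e-05), at least 1.95-fold higher, with aorta means of 12.3 and 19.2 below the reference, and did not reach the filter in -/- mice. The fourth gene called in -/- mice was Slc2a5 (at least 1.37-fold higher, adjusted p = 0.0418). Tmem119, used as a marker of microglia, read 58.2 to 176 in brain and 327 to 370 in aorta, so it did not move with Cx3cr1. Sall1 and Trem2 lay at or below the reference in the mean of all 4 groups.

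Genes of border and perivascular macrophages were split, with 2 higher and 4 lower in brain of 12 tested in +/- and 4 higher and 4 lower of 12 in -/- mice. The 4 lower genes were the same in both: Cbr2 (-3.92 and -5.12, adjusted p = 9.06e-08 and 1.15e-10), Lyve1 (-2.01 and -1.45, adjusted p = 0.000157 and 0.000142), F13a1 (-1.54 and -1.41, adjusted p = 0.000313 and 1.53e-06) and the folate receptor Folr2 (-1.49 and -1.51, adjusted p = 0.00089 and 4.71e-05). Lyve1 is also a gene of lymphatic vessels. These 4 moved with Mrc1 and Cd163. The 2 genes called higher in brain in both genotypes were Cd209f and the transcription factor Maf. Cd209f read 221 to 429 in brain and 180 to 217 in aorta. Maf was higher by 0.88 and 0.84 (adjusted p = 0.0243 and 0.000566).

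Pan-myeloid genes rose more often than they fell in +/- mice, with 6 higher and 2 lower of 15 tested. Laptm5, a lysosomal membrane protein of leukocytes, rose by 2.06 (adjusted p = 1.63e-05), close to the size of Csf1r, and Irf8, a transcription factor of macrophages, rose by 1.32 (adjusted p = 0.000114). Ctss, the lysosomal protease cathepsin S, rose by 0.99 (adjusted p = 0.00193). In -/- mice 6 rose and 4 fell, with Laptm5 at 2.37 (adjusted p = 6.9e-08). The 2 genes that fell in +/- mice, Cd53 and Coro1a, fell in -/- mice as well. Cd53 read 64.2 to 123 in brain and 105 to 181 in aorta, and Coro1a read 34.2 to 129 and 97.5 to 165. Aif1, the gene of the common microglial stain, lay at 2.36 to 46.4 in brain and 37.9 to 62.4 in aorta, and Itgam lay at or below the reference in all 4 group means.

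Lysosomal and phagocytic genes fell more often: 3 higher and 8 lower of 13 in +/- and 4 higher and 8 lower of 13 in -/- mice. The receptor Axl (-2.32 and -2.92, adjusted p = 1.12e-06 and 1.71e-08) and its ligand Gas6 (-1.95 and -2.43, adjusted p = 7.23e-06 and 7.23e-09) fell together in brain, as did the protease Ctsl (-2.38 and -2.29, adjusted p = 2.01e-06 and 9.31e-09), and Grn rose (1.13 and 1.13, adjusted p = 0.000212 and 1.16e-06). Axl, Gas6 and Ctsl are also expressed by cells of the vessel wall. Of the antigen presentation genes, 3 of 6 tested fell in +/- mice (H2-Eb1, H2-Ab1 and Cd74) and 1 of 6 in -/- mice (H2-Eb1, -1.11, adjusted p = 6.82e-05).

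Among ligands, Cx3cl1, the ligand of Cx3cr1, rose in brain by 1.52 (adjusted p = 5e-05) in +/- and 1.33 (adjusted p = 4.67e-06) in -/- mice. Tgfb1, whose aorta means of 33.1 and 38.6 lay below the reference, was at least 1.59-fold (adjusted p = 0.00915) and 1.91-fold (adjusted p = 0.000222) higher in brain. Tgfb1 reached the filter through its brain group alone in both genotypes, so its calls carry no separate weight. Csf1, a ligand of Csf1r, differed by -0.53 (adjusted p = 0.0533) and -0.08 (adjusted p = 0.706). Il34, the other ligand, lay at or below the reference in all 4 group means. Among partners of the members, C1ra (-2.30 in +/- mice, adjusted p = 1.25e-05; at least 6.07-fold lower in -/- mice, where brain lay below the reference, adjusted p = 2.97e-06) and C1s1 (-1.59 and -2.40, adjusted p = 0.00134 and 5.14e-06), the proteases that join C1q, fell in brain.

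**Figure D3:**
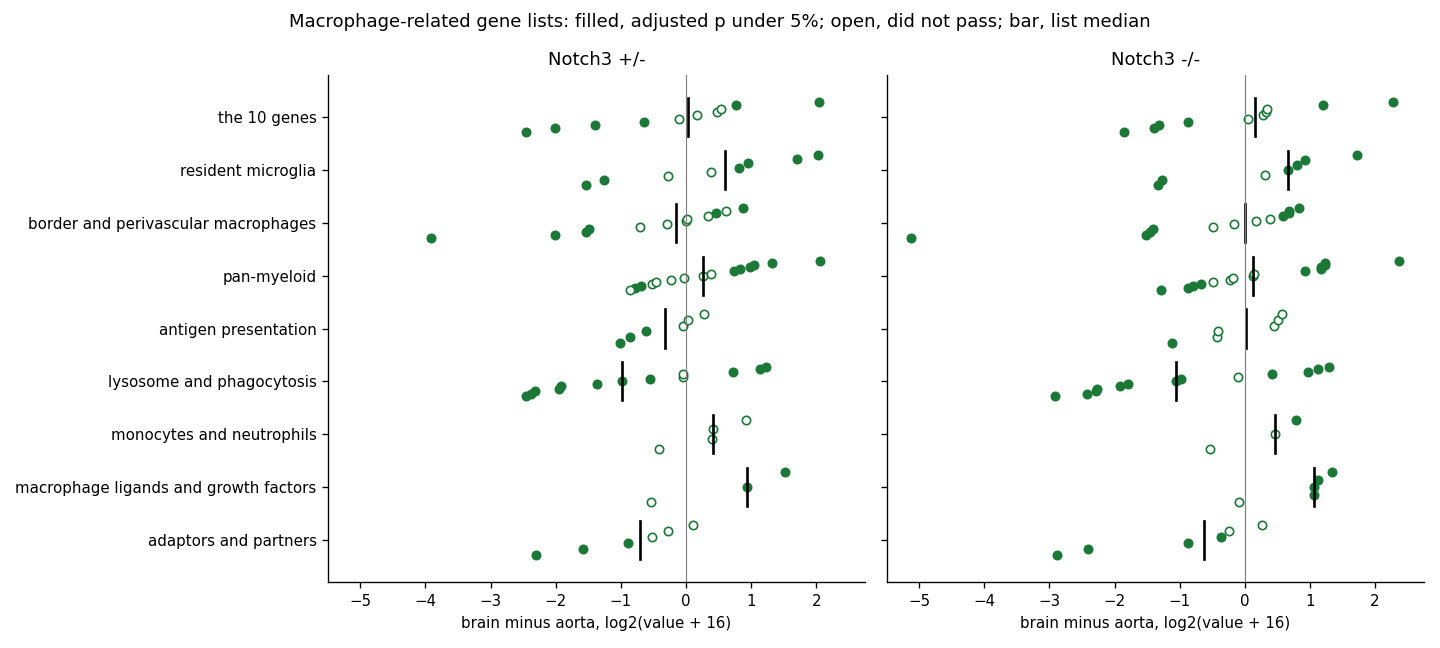
Brain minus aorta difference in log2(value + 16) for each gene of the 10 described and of 8 related lists, in Notch3 +/- (left) and Notch3 -/- mice (right). Filled points passed an adjusted p of 5%, and the black bar is the list's median. Lysosomal genes and the adaptors and partners of the 10 genes lie mostly left of 0, with medians of -0.99 and -0.70 in +/- mice.

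The second comparison, Notch3 -/- against +/- arrays, asked whether loss of Notch3 changed the macrophage genes. In sorted brain cells none of the 10 passed by its brightest probe set (0 under 0.05 before adjustment by limma), and 0 had arrays that did not overlap between genotypes. Over all probe sets 0.142% were called (32 of 22519, limma) and 3.3% did not overlap. Cd163, with its +/- mean at the reference, had the largest difference, 0.66 ± 0.39 (95% interval -0.17 to 1.49, adjusted p = 0.62), and the brightest C1qb probe set the lowest, -0.29 ± 0.32 (interval -0.98 to 0.40, adjusted p = 0.818). Of the members' 14 probe sets in this fit, the lowest p before adjustment by limma was 0.0213, for C1qb 1417063_at at -0.64 ± 0.25 (adjusted p = 0.434). It read 102, 83.1, 213 and 178 in +/- and 109, 62.5, 83.0, 81.8 and 73.7 in -/- arrays, so I and H stood above the rest, and the other 2 +/- arrays lay among the -/- arrays.

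For the remaining genes the brain intervals bound what could have been missed. Csf1r differed by 0.14 (interval -0.29 to 0.57), Lyz2 by 0.20 (-0.14 to 0.55), Mrc1 by 0.23 (-0.31 to 0.78), Tyrobp by 0.17 (-0.33 to 0.68) and C1qa by -0.18 (-0.71 to 0.35). Cx3cr1 differed by 0.11 (-0.50 to 0.72), P2ry12 by -0.0049 (-0.59 to 0.58) and Cd68 by 0.08 (-0.41 to 0.58). These intervals leave room for changes of up to the bounds given. The median over the 10 genes was 0.12, against 0.01 over all probe sets. Several brain differences changed sign when 1 array was left out, and no gene among the 10 passed under any alternative run.

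The related lists were alike in this respect: 0 genes of the 8 macrophage-related lists were called in brain. Closest was Cbr2, a carbonyl reductase listed with border macrophages, at -1.13 (adjusted p = 0.0548). It read 333, 214, 215 and 328 in +/- and 151, 152, 104, 88.4 and 84.5 in -/- arrays, with no overlap. It passed with array weights (adjusted p = 0.0398) and in the fit of all 15 arrays (adjusted p = 0.00523), and in none of the other 14 alternatives, where the adjusted p by limma ran from 0.0634 to 0.179. Mural genes give a scale for the same arrays, with Tagln and Myh11 lower in -/- (-1.56 and -1.67, adjusted p = 0.0204 and 0.0208).

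In aorta explants 9 of the 10 genes reached the filter (Cx3cr1 did not), and none passed (0 under 0.05 before adjustment by limma). No probe set on the array was called (0%), while 980 fell under 0.05 before adjustment. Cd163 had the largest difference, -0.40 ± 0.20 (interval -0.86 to 0.07, unadjusted p = 0.085, adjusted p = 0.999). The other 8 lay between -0.10 (Cd68) and 0.16 (Mrc1). Csf1r differed by -0.08 (interval -0.35 to 0.18), Lyz2 by 0.05 (-0.18 to 0.29) and Tyrobp by 0.0081 (-0.28 to 0.29). Of the 13 probe sets tested, 1 had genotypes that did not overlap, Csf1r 1423593_a_at at 222, 253 and 224 in +/- against 211, 213 and 199 in -/- arrays, while 9.47% of all probe sets did not overlap. The aorta arrays were tighter than the brain arrays, and the interval of Csf1r was accordingly narrower.

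**Figure D4:**
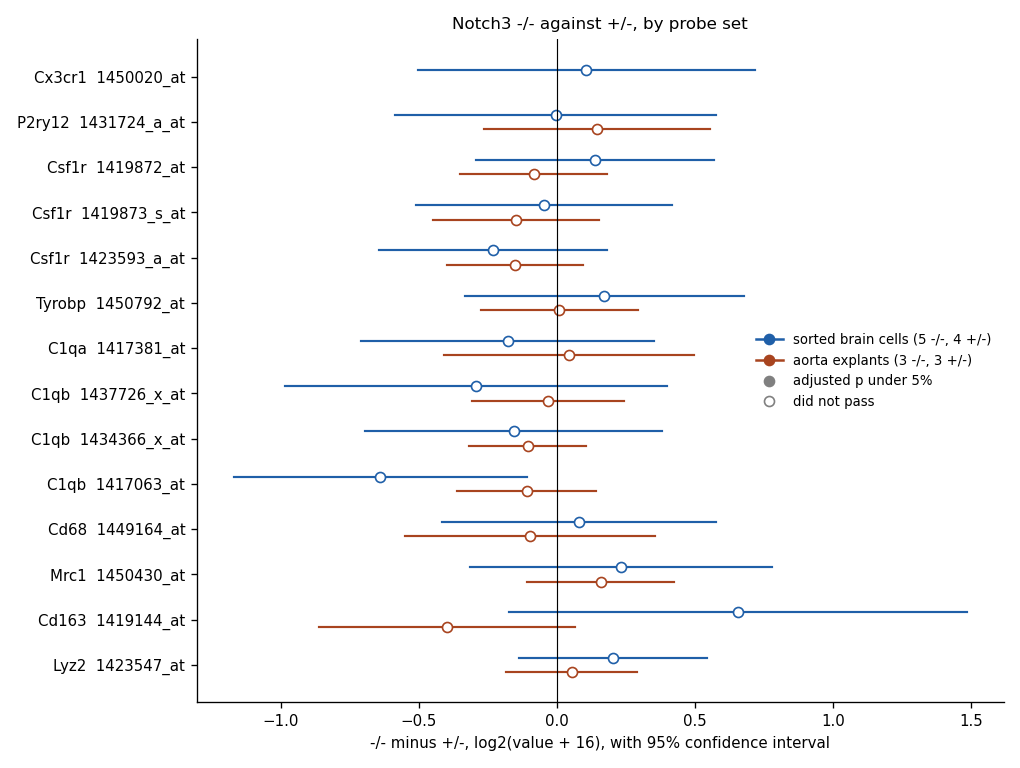
Notch3 -/- minus +/- difference in log2(value + 16), with 95% confidence intervals, for each probe set that passed the filter, in sorted brain cells (5 -/-, 4 +/- arrays) and aorta explants (3 -/-, 3 +/- arrays). Every point is open, since none passed an adjusted p of 5%, and 1 interval, that of C1qb 1417063_at in brain, lies wholly on 1 side of 0.

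The test of whether the Notch3 difference itself differed between tissues gave no call among the 10 genes (0 under 0.05 before adjustment by limma), against 0.0178% of all probe sets (4 of 22519). Cd163 came nearest, at 1.05 ± 0.55 (interval -0.09 to 2.20, unadjusted p = 0.0696, adjusted p = 0.997), from 0.66 in brain and -0.40 in aorta. The others ranged from -0.26 (C1qb) to 0.44 (Cx3cr1), and the median of all 10 genes was 0.16.

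Within the brain arrays the genes varied from array to array more than between genotypes. Array B (-/-) was lowest of all 9 in Tyrobp, C1qa, C1qb and Mrc1, and 0 of the 10 genes exceeded the -/- mean there, with an average deviation of -0.57 on the log2 scale. Array A (-/-) was highest in Cx3cr1, Csf1r and Cd68, with 9 of the 10 above the -/- mean and an average deviation of 0.37. Among +/- arrays the averages ran from -0.22 (G) to 0.21 (E), and no array moved all genes: in E the deviation was 1.40 for Cd163 and -0.52 for C1qb, and in H it was 1.17 for C1qb and -0.38 for Cd163. Arrays A and B were also the highest and lowest in the summed signal of the genes of other organs (1001 and 532) and in median intensity (51.8 and 41.3), and the part of this in the pattern was not tested.

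**Figure D5:**
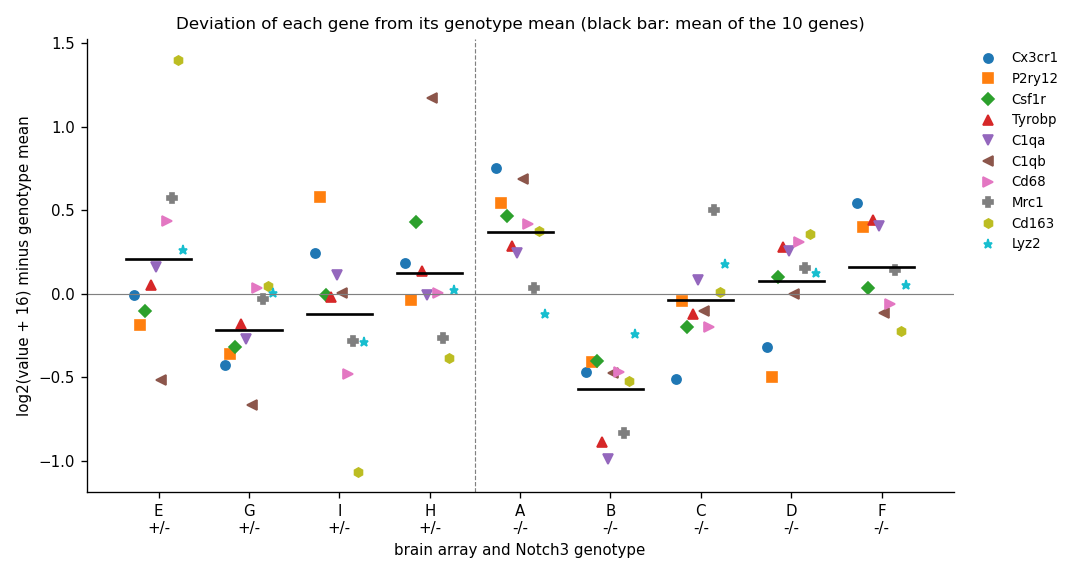
Deviation of each of the 10 genes from its genotype mean in log2(value + 16) on the 9 brain arrays (E, G, I and H are Notch3 +/-; A, B, C, D and F are -/-), brightest probe sets, with a black bar at the mean of the 10. All points of array B lie below 0, and 9 of 10 on array A above it.

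Across the 9 brain arrays each gene was set against the mean of the other 9, as a description over arrays that share scaling. Here too, and for the genes outside the 10, each genotype's mean was subtracted first, so r and rho describe deviations within genotypes. Tyrobp (r = 0.87, rho 0.83) and C1qa (r = 0.84, rho 0.62) followed the rest most closely, then Csf1r (r = 0.74), Cd68 (0.70) and Cx3cr1 (0.59). Cd163 (r = 0.29), P2ry12 (0.33) and C1qb (0.35) followed least. Of the genes outside the 10, those most like their mean were Ttll11, Mmp24, Jarid2, Col27a1, Zfp646, Cybc1, Fcgr2b, Rlf, Rnf25 and Gtpbp3, with r from 0.99 down to 0.94. They were the closest among those of the 22519 probe sets that carry 1 gene symbol, taking 1 probe set per gene. Fcgr2b, an Fc receptor of myeloid and B cells, read 366 to 706.

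The aorta arrays were closer together. Array 5561 was highest in 5 of the 10 genes (Csf1r, Tyrobp, C1qb, Cd68 and Lyz2) and 5556 lowest in 5 (Csf1r, C1qa, C1qb, Mrc1 and Lyz2), with average deviations of 0.21 and -0.23 over the 9 genes that passed the filter. Both are +/- arrays, and the 3 -/- arrays deviated by 0.0157 or less on average. Csf1r ranged over 1.39-fold in aorta and 1.90-fold in brain, Tyrobp over 1.29-fold and 2.63-fold, and C1qb over 1.38-fold and 3.88-fold.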

How the data were processed

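Hybridisation intensities of 15 arrays were taken as the authors deposited them, on a linear scale. Per the labels' protocols and the design text, each brain array received 15 µg of biotinylated cRNA, and arrays were scaled to a target of 150; the mean after trimming 2% at each end was 150 on all 15 arrays in the files. How probes were summarised into probe sets is not stated there. Gene names came from the platform annotation, which gave 1 symbol for 34958 of 45101 probe sets, several for 932 and none for 9211. Of the probe sets with 1 symbol, 34754 were matched to RefSeq by gene number. None of the members' probe sets carried several symbols.

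Values were tested as log2(value + 16) by limma (version 3.58.1, under R 4.3.3), with eBayes following the trend of variance with intensity and two-sided p-values, without the 64 control probe sets, over the 22519 probe sets at or above the median mean intensity of the arrays in each fit, with Benjamini-Hochberg adjustment and a threshold of 5%. Each comparison used only its own groups, except the difference of differences, which used all 15 arrays. The scripts were tested on simulated data. Related genes were named by smallest p, up to 4 for each list. Maf, Cd209f, Cd53, Coro1a, Grn, Siglech and Slc2a5 were chosen after their values were seen. So were the monocyte and neutrophil genes, the marker genes at or near the reference level and the lower bounds on folds. The members and lists were chosen with earlier results of these data known. Alternatives were another pseudocount, no filter, quantile normalization, median centring, no trend, array weights, 1 fit of all arrays, the aorta name series as a block or alone, other probe sets, and leaving out each array. The number of arrays limits the precision.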

Additional observations from a re-analysis of the deposited data

How the results depend on the processing

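By the brightest probe sets, the 6 tissue calls kept direction and threshold in both genotypes under every alternative run on the samples or the scale, except without the single arrays named beside Cx3cr1 and C1qa; for those, the cause was not tested. Cx3cr1, P2ry12 and, in brain, Cd163 lay near the level of genes of other organs, which limits what their differences can show. The number of members called higher in brain was 1 to 2 with single arrays left out, in +/- and in -/- mice. Probe sets called over the whole array for the brain genotype numbered 32, and 18 without the filter, 52 with array weights, 137 in 1 fit of all arrays and 10 to 38 with single arrays left out. For aorta the number was 0, with 1 under median centring, 2 in 1 fit of all arrays and 0 to 7 with single arrays left out. For the difference of differences it was 4, with 13 under array weights and 0 to 7 with single arrays left out.

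Signs that turned were all of differences that had not passed, apart from those that turned with the probe set. By probe set, Csf1r turned from its brightest to -0.046 (1419873_s_at) and -0.23 (1423593_a_at) in the brain genotype comparison, and 1423593_a_at gave -0.0805 in the difference of differences and -0.24 (+/-) and -0.32 (-/-) between tissues, where C1qb 1417063_at gave -0.89 and -1.42. Median centring gave P2ry12 0.0038 (brain genotype), Cd68 -0.0074 (tissue, +/-) and Tyrobp -0.13 (tissue, -/-). Array weights gave P2ry12 0.072, Csf1r 1419873_s_at 0.011 and C1qb 1434366_x_at 0.0019 in the brain genotype comparison, and the last 0.12 in the difference of differences. The aorta arrays with 55xx names alone gave Tyrobp -0.13 and Lyz2 -0.013.

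With single arrays left out, brain genotype differences ran from -0.082 to 0.23 (Cx3cr1), -0.14 to 0.19 (P2ry12), -0.19 to 0.14 (Csf1r 1419873_s_at), -0.28 to 0.0685 (C1qa), -0.51 to 0.10 (C1qb 1437726_x_at), -0.32 to 0.092 (C1qb 1434366_x_at) and -0.079 to 0.23 (Cd68). Aorta genotype differences ran from -0.18 to 0.0595 (Csf1r), -0.076 to 0.10 (Tyrobp), -0.18 to 0.18 (C1qa), -0.17 to 0.061 (C1qb), -0.24 to 0.10 (Cd68) and -0.0081 to 0.18 (Lyz2). The difference of differences ran from -0.29 to 0.0445 (P2ry12), -0.037 to 0.29 (Csf1r 1419873_s_at), -0.19 to 0.0498 (Csf1r 1423593_a_at), -0.36 to 0.025 (C1qa), -0.48 to 0.13 (C1qb 1437726_x_at), -0.22 to 0.20 (C1qb 1434366_x_at), -0.023 to 0.32 (Cd68) and -0.053 to 0.28 (Mrc1). Tyrobp between tissues in -/- mice ran from -0.0555 to 0.28. The causes were not tested. No paired analysis was possible because the groups share no replicate names.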
